A study of Rattus norvegicus with 3 samples.

Results

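The uroplakins and a small group of genes of urothelial and squamous epithelium were examined in rat kidney after feeding of a mussel protein hydrolysate. The set holds 8 genes, chosen by name from earlier results of the same arrays because most of them stood above the water-fed kidney at both doses. They are the uroplakins Upk1a, Upk1b, Upk2, Upk3a and Upk3b, the small proline-rich protein gene Sprr1a, the sodium pump regulator Fxyd3 and Psca, a gene for a surface protein anchored in the membrane by a lipid. A probe named for them was found for 7 of the 8 genes. These 7 genes have 9 probes of the 30367 on the array, which name 17826 genes, while no probe was named for Psca, by symbol or through its accession. Because the genes were chosen for their levels on these arrays, the values below describe them and are no independent evidence of a direction.

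The kidneys came from male spontaneously hypertensive rats, which carry a Wistar background and become hypertensive as they age. Rats aged 8 to 10 weeks and weighing 280 to 330 g were randomised into 3 groups of 10. Every morning they received by mouth, for 4 weeks, about 3 mL of water, of a low dose (10 mg/kg per day) or of a high dose (20 mg/kg per day) of HBMP, the peptide mixture obtained by hydrolysing blue mussel protein. RNA from the kidneys of 4 rats per group was pooled and hybridised to 1 single-dye array per group. With 1 pool per group there was no replicate and no test was possible, so the number of arrays limits the precision. The labels do not say which region of the kidney was taken, or whether the renal pelvis was removed.

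The urothelium lines the renal pelvis, ureter and bladder, and its superficial umbrella cells carry rigid plaques on the side facing the urine. The plaques are built from uroplakins: the tetraspanins Upk1a and Upk1b pair with the single-pass proteins Upk2 and Upk3a. Upk3b can take the place of Upk3a in a pair and is also known from mesothelium. Sprr1a encodes a precursor that transglutaminases cross-link into the cornified envelope of squamous cells, and it is also known as a gene induced by injury in other tissues, such as rat peripheral nerve.

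Promoter sequences from RefSeq on the assembly GRCr8, which run from 250 bases before to 50 bases after the annotated start of the gene, were held for 5 of the 8 genes (Upk1a, Upk1b, Upk3a, Upk3b and Sprr1a). Of these, 3 are printed so that the DNA in front of genes that stood higher at both doses can be compared: Sprr1a lies at chr2:180752576-180752875 on the minus strand, Upk3a at chr7:118014540-118014839 on the plus strand, and Upk1a at chr1:94997531-94997830 on the minus strand. Each is written 5′ to 3′ in the direction of the gene, and capitals mark matches to the AP-1 site TGANTCA, the TATA box TATAAA, the Grainyhead core ACCGGT and the GC box GGGCGG, searched on both strands.
Sprr1a: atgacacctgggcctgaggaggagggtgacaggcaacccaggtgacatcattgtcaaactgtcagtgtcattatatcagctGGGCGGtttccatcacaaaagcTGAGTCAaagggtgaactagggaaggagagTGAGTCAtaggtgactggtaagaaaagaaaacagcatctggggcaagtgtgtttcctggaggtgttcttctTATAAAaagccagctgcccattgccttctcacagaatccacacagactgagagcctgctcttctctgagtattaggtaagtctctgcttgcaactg
Upk3a: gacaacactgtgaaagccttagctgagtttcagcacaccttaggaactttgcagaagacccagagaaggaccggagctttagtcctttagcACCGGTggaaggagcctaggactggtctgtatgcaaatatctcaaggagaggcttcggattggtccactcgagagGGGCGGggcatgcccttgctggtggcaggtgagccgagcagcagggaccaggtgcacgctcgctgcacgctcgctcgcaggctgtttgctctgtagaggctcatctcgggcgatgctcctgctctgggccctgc
Upk1a: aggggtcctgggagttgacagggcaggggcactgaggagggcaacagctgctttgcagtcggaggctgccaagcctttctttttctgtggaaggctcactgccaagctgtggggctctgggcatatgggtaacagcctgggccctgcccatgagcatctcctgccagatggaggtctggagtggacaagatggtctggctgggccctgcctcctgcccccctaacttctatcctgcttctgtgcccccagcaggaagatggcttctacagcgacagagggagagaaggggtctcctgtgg
The Sprr1a promoter held 2 AP-1 matches, starting 147 and 117 bases before the start site, a TATA box at 46 bases and a GC box at 169 bases. Among 33365 rat promoters of the same length, 7.34% held at least 1 AP-1 match and 0.417% at least 2, while 0.0989% held at least 2 together with a TATA box. The last 2 shares were worked out for what the Sprr1a window holds, so their small size is no evidence about Sprr1a. The Upk3a promoter held a Grainyhead core at 159 bases, a sequence found in 2.26% of promoters, and a GC box at 84 bases, found in 33.1%. No AP-1 match and no TATA box, which 14.2% of promoters held, was found in the windows of the 4 uroplakins. The windows of Upk1a, Upk1b and Upk3b held no match to any of these 4 motifs. None of the 5 windows held the nuclear receptor motif AGGTCA (16.2% of promoters), and Upk1b held 1 match to the TEAD motif GGAATG (14.2%), at 178 bases. No match overlapped another in these windows, and a match is a run of letters, not a binding site shown by these data.

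Levels are spot intensities after subtraction of background and scaling of the arrays to one 75th percentile, in arbitrary units, and they may be compared between arrays for 1 probe but not between probes. A probe counted as above background when its signal-to-noise ratio was at least 3, a limit passed by 50.9%, 52.4% and 55.0% of 30130 probes on the water, low-dose and high-dose arrays. Where a probe did not pass this limit on 1 array of a pair, the fold is a bound, written "at least", taken over the lowest value above background on that array or, if that was higher, over the value of the probe itself. The lowest values above background were 13.8 for water, 11.6 for the low dose and 8.20 for the high dose. A bound holds for these settings and is not a strict minimum, since other settings gave smaller values. Each member probe is a single spot. As a guide to technical spread, 700 probes printed on several spots at similar intensity had a median SD between spots of 0.11 for the log2 difference of either dose from water and 0.08 for that between the doses (95th percentile 0.30, 0.28 and 0.25 for low against water, high against water and high against low). Those probes had mean levels of 55.6 to 519 and spots above background on all 3 arrays. Their spread therefore does not cover the dim water spots behind the bounds. It also holds nothing of the difference between rats. In RNA from kidney tissue, fewer cells of a type and less RNA per cell cannot be told apart.

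Across the 9 probes, 7 stood at least 2-fold higher at the low dose than in water-fed kidney and 7 at the high dose, 1 measured on both arrays and 6 as bounds at each dose. The probes past 2-fold were the same 7 at both doses and belong to Upk1a, Upk1b, Upk2, Upk3a, Sprr1a and Fxyd3. Of all probes with a fold, measured or as a bound, 2.96% were at least 2-fold higher at the low dose and 1.18% at the high dose. A probe above background on 1 array of a pair had no bound where its value there did not exceed the value used for the other array. Among probes above background at the dose but not in water, the kind to which 6 of the 7 belong, these shares were 15.5% and 5.06%. The median log2 difference over all probes measured was -0.09 at the low dose and -0.03 at the high dose.

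**Figure D1:**
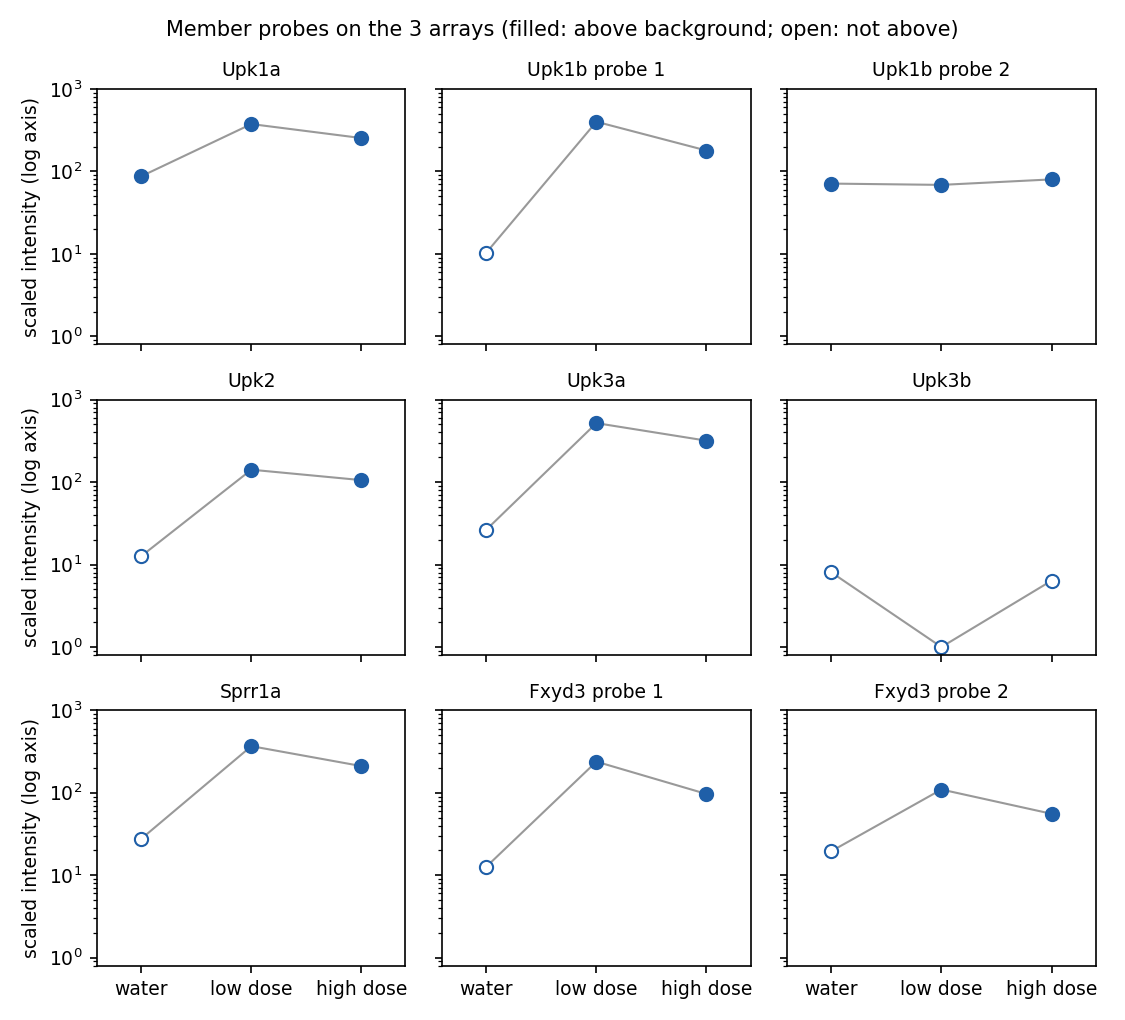
Scaled intensity (log axis, arbitrary units) of the 9 probes on the water, low-dose and high-dose arrays, with 1 panel per probe and 1 spot per point. Filled points are above background and open points are not, and a value below 1, which is the low-dose value of Upk3b, is drawn at 1. In 7 panels both doses lie above water and the high dose lies below the low dose.

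The tetraspanin uroplakins differed between probes. Upk1a, 1 of the pair of tetraspanins of the plaque, had a scaled intensity of 87.4 in water-fed kidney, 376 at the low dose and 254 at the high dose. It was above background on all 3 arrays (signal-to-noise ratio 7.60 in water), so its differences are measured: a log2 difference of 2.10 (4.30-fold higher) at the low dose and 1.54 (2.91-fold higher) at the high dose. Of the 7 higher probes it is the one whose size against water does not rest on a bound. Upk1b, the other tetraspanin, was read by 2 probes that disagreed. The first stood at 10.35 in water, where it was not above background, at 401 at the low dose and at 179 at the high dose. That is at least 29.1-fold higher at the low dose and at least 13.0-fold higher at the high dose. The second probe stood at 71.3 in water, 68.8 at the low dose and 80.2 at the high dose, above background on each. Its log2 differences, -0.05 and 0.17, were smaller than the 95th percentile of the technical SD. The files used here give no probe sequences, so whether the probes read different transcripts of Upk1b was not tested.

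The partner uroplakins were not above background in water-fed kidney. Upk3a, the partner of Upk1b in the plaque, stood at 26.45 in water, 519 at the low dose and 318 at the high dose, at least 19.6-fold and at least 12.0-fold higher than water. Upk2, the partner of Upk1a, stood at 12.65 in water, 141 at the low dose and 106 at the high dose, at least 10.2-fold and at least 7.66-fold higher. Neither was above background in water (signal-to-noise ratio 2.33 for Upk3a and 1.29 for Upk2), and both were above it at both doses. Upk3b stood at 8.05 in water, -1.94 at the low dose and 6.38 at the high dose. It was above background on none of the 3 arrays, so it has no fold, and a difference was not detectable at this signal.

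The genes outside the plaque showed the same order of the 3 arrays as Upk3a and Upk2. Sprr1a, the cornified envelope precursor, stood at 27.6 in water, 367 at the low dose and 210 at the high dose. It was at least 13.3-fold higher at the low dose and at least 7.62-fold higher at the high dose. Its water spot, with a signal-to-noise ratio of 2.88, lay just under the limit for background. Fxyd3, which associates with the sodium pump and alters its ion affinity, was read by 2 probes that shared a direction. The first stood at 12.7 in water, 238 at the low dose and 96.6 at the high dose, at least 17.3-fold higher than water at the low dose and higher by a log2 difference of at least 2.81 at the high dose. The second stood at 19.55 in water, 109 at the low dose and 55.6 at the high dose, at least 5.60-fold and at least 2.84-fold higher. The water spots of both were below the limit for background, with ratios of 1.33 and 2.57.

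**Figure D2:**
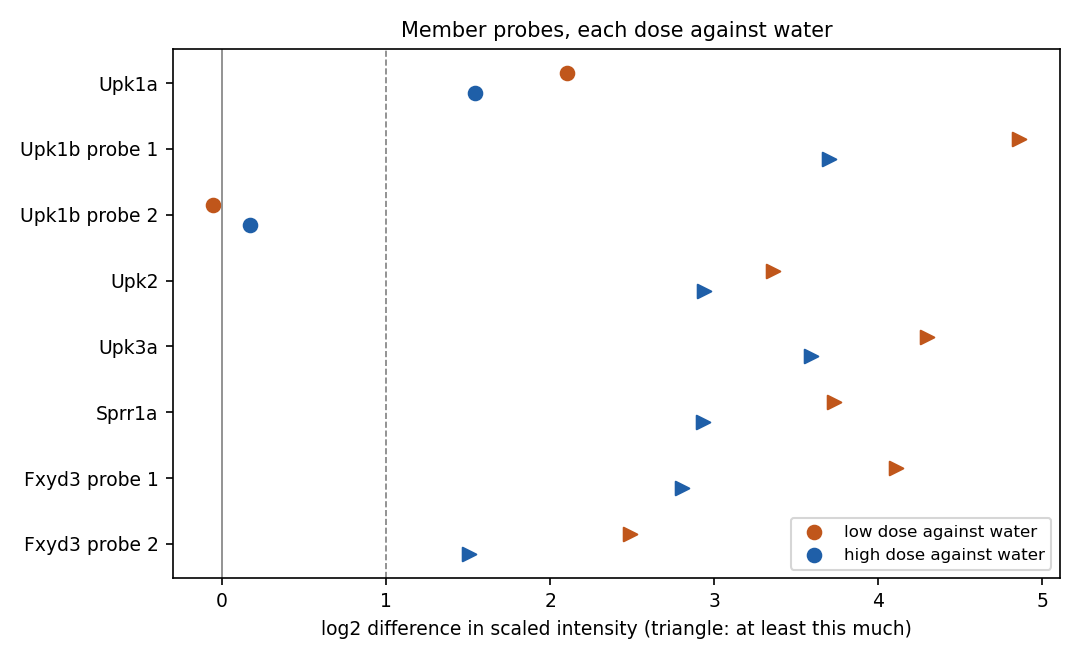
Log2 difference of the low dose and of the high dose from water for the 8 probes that were above background on some array. Circles are measured on both arrays and triangles are bounds as defined in the text, and the dashed line marks 2-fold. The second Upk1b probe sits near 0 (-0.05 and 0.17), while the other 7 lie past 2-fold at both doses, from 2.10 to 4.86 at the low dose and from 1.51 to 3.70 at the high dose.

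The sizes, also those written as bounds, depend on how background and its limit were handled. With a signal-to-noise limit of 5, the bound of the first Upk1b probe at the low dose fell from a log2 difference of 4.86 to 3.99. With normexp background correction and an offset of 50, which shrinks differences of dim probes, the same 7 probes lay between 2.01-fold and 6.62-fold higher at the low dose, again as bounds except for Upk1a. At the high dose 5 of them passed 2-fold, from 2.02-fold for Upk2 to 4.32-fold for Upk3a, and the Fxyd3 probes stood at 1.98-fold and 1.32-fold. The share of all probes past 2-fold was then 1.19% at the low dose and 0.383% at the high dose.

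Between the doses, all 8 probes above background were measured on both arrays. Of these, 7 were lower at the high dose. The median log2 difference over the 8 was -0.76, against 0.03 over all probes. Of all measured probes 45.5% were lower by any amount, and 1.20% were lower by 2-fold or more. The 2 member probes lower by 2-fold or more were the first of Fxyd3, at -1.30 (2.47-fold lower), and the first of Upk1b, at -1.16 (2.23-fold). Sprr1a stood at -0.80, Upk3a at -0.71, Upk1a at -0.56 and Upk2 at -0.42. The second Fxyd3 probe was at -0.98, and the second Upk1b probe, at 0.22, was higher at the high dose. With normexp none of the 8 passed 2-fold, and the first Upk1b and Fxyd3 probes stood at -0.96 and -0.94. The same order of doses was common among genes higher at both. Of 15696 probes, 122 (0.777%) were at least 2-fold higher than water at both doses, and 99 of these (81.1%) were lower at the high dose than at the low dose, with a median of -0.38. Both comparisons with water use the same water array.

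Other genes of urothelial cells were examined as a list of 26 markers and regulators without the members, of which 23 had a probe and 15 were above background on some array. At the low dose 5 were at least 2-fold higher and 0 lower, and at the high dose 2 were higher and 0 lower. Named genes with a fold, measured or as a bound, numbered 10565 for the low dose and 10785 for the high dose. Of these, 3.50% were at least 2-fold higher and 1.06% lower at the low dose, and 1.30% higher and 0.278% lower at the high dose. These shares are also the ones to set beside the counts of the lists below. The median over measured genes of the urothelial list was 0.66 at the low dose and 0.15 at the high dose. Upk3bl1, a uroplakin 3b-like gene that lies next to Upk3b in the annotation, stood at 138 in water, 1034 at the low dose and 308 at the high dose. Its log2 differences were 2.91 and 1.16, and its other probe gave 2.71 at the low dose and was not above background at the high dose. Upk3bl1 was thus higher at both doses while its neighbour Upk3b was not above background. The keratin gene Krt18, expressed in simple epithelia and in umbrella cells, stood at 1.48 at the low dose and 0.56 at the high dose. Krt15, a keratin of basal epithelial cells, stood at 19.55 in water, where it was not above background, 226 at the low dose and 80.2 at the high dose. It was at least 11.5-fold higher at the low dose and at least 4.10-fold higher at the high dose. The transcription factor genes Grhl3 and Klf5, both active in the bladder epithelium of mice, were at least 3.07-fold and at least 2.89-fold higher at the low dose and at least 1.64-fold and at least 1.39-fold higher at the high dose.

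Several markers of urothelial layers were not detected or stood within 2-fold of water. Krt20 of umbrella cells and Krt5, Krt13 and Krt17 of basal and intermediate cells were above background on none of the 3 arrays. Krt7, found in urothelium and in collecting ducts, stood at 10118 in water, 11678 at the low dose and 9915 at the high dose by its brighter probe, log2 differences of 0.21 and -0.03. Its other probe stood at 730 in water, 958 at the low dose and 1451 at the high dose, log2 differences of 0.39 and 0.99, so the Krt7 probes disagreed at the high dose. Krt19 stood at 0.39 and -0.01, Gata3 at 0.73 and -0.02 and Elf3 at 0.56 and -0.14 for the low and the high dose. Between the doses 4 of the list's genes were lower by 2-fold or more at the high dose and 0 higher, against 1.87% lower over all genes, and the median was -0.70.

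Most squamous genes listed beside Sprr1a were not detected or stood within 2-fold of water. Of 33 listed genes of the cornified envelope and of squamous differentiation, 27 had a probe and 10 were above background on some array. At the low dose 3 were at least 2-fold higher and at the high dose 1, with 0 lower at either dose, and the median over the measured ones was -0.14 and 0.12. Sprr1b, the gene most like Sprr1a in name and a neighbour of it on the chromosome, stood at 59.8 in water, 49.4 at the low dose and 65.6 at the high dose. Its log2 differences were -0.28 and 0.13. Sprr3, next to Sprr1a, was above background at the high dose alone, and at 1.02-fold its bound there is close to no difference. Involucrin (Ivl), the keratins Krt1, Krt10 and Krt16, and the cross-linking enzyme Tgm1 were above background on none of the arrays. The listed genes past 2-fold were Sfn, an epithelial 14-3-3 protein, at least 9.82-fold higher at the low dose and at least 2.97-fold higher at the high dose, the annexin Anxa8, at least 3.37-fold higher at the low dose, and Il1rn, the interleukin 1 receptor antagonist, at 1.02 (log2) at the low dose.

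**Figure D3:**
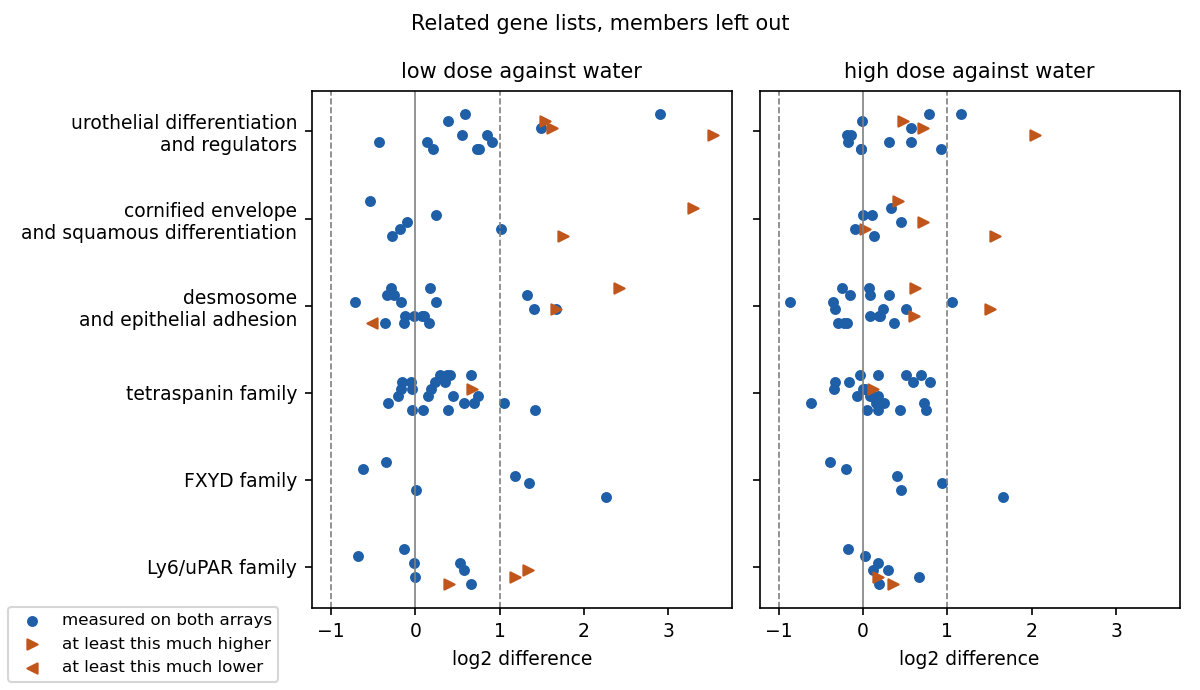
Log2 difference from water at the low dose (left) and the high dose (right) for the genes of 6 related lists, with the 8 members left out and 1 probe per gene. Circles are genes measured on both arrays, triangles pointing right are at least that much higher, triangles pointing left at least that much lower, and dashed lines mark 2-fold. The urothelial list reaches 3.53 as a bound at the low dose (Krt15) and 2.04 at the high dose, and the cornified envelope list 3.30 and 1.57 (Sfn). Most genes of each list but the FXYD family at the low dose lie between the dashed lines.

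Of 27 listed junction and basement membrane genes with a probe, 21 were above background on some array. At least 2-fold higher were 5 at the low dose and 2 at the high dose, with 0 at least 2-fold lower at either. Among the genes measured on both arrays, 8 lay above and 9 below water at the low dose by any amount, and 10 above and 8 below at the high dose. Cldn4, a tight junction claudin of collecting duct and urothelium, stood at 1.67 at the low dose and 1.05 at the high dose. The desmosomal Pkp1 stood at 1.41 and 0.51, and Itgb4, the integrin subunit of hemidesmosomes, at 1.32 and 0.31. The laminin subunit gene Lamb3 was at least 5.35-fold higher at the low dose and at least 1.54-fold higher at the high dose. The median over the measured genes of the list was -0.02 at the low dose and 0.08 at the high dose.

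The families of the members were examined as well. Of 25 tetraspanin genes other than Upk1a and Upk1b, 24 were above background on some array, 2 were at least 2-fold higher at the low dose and 0 at the high dose. These were Tspan1 at 1.42, with 0.44 at the high dose, and the leukocyte tetraspanin gene Cd53 at 1.05. Of the 6 other FXYD genes, which encode small partners of the sodium pump, all 6 were above background. At the low dose 3 were at least 2-fold higher, and at the high dose 1. Fxyd1, known as phospholemman in heart and muscle, stood at 27.6 in water, 133 at the low dose and 87.4 at the high dose, log2 differences of 2.27 and 1.66, with a water spot exactly at the limit for background. Fxyd4, the collecting duct member, stood at 1.34 and 0.93 and Fxyd5 at 1.18 and 0.41. Fxyd2, the gamma subunit of the renal sodium pump, stood at 0.01 and 0.46. In the family of Psca, the Ly6/uPAR proteins, 11 of 15 genes with a probe were above background on some array. Of them 2 were at least 2-fold higher at the low dose, both as bounds (Gpihbp1 and Lypd1), and 0 at the high dose.

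Genes most like the members were sought among 9655 named genes above background on all 3 arrays, by the distance over the log2 differences at both doses. The set median that served as the target rested on Upk1a and the flat Upk1b probe, since these alone were above background everywhere, so it lay between them at 1.03 and 0.85. The 5 nearest genes to it were C1h11orf24, Tpd52l1, Syf2, Fhl2 and Carm1, at distances of 0.05 to 0.13. Nearest to Upk1a alone, a target chosen after its values were seen, was Capg, an actin-capping protein gene, at 2.26 and 1.49 with a distance of 0.16. Fxyd1 followed at 0.20 and S100a6, a calcium-binding protein gene, at 0.22. With 3 arrays such likeness describes 2 numbers per gene.

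Marker lists of other cell types and kidney regions also differed between the arrays, and their part in the values above was not tested. All 20 proximal tubule genes listed were above background on every array, so the labelled tissue is seen in its markers, and their summed intensity was 314522 in water, 258062 at the low dose and 251965 at the high dose. Their median log2 difference was -0.39 at the low dose and -0.43 at the high dose. The 12 principal cell genes of the collecting duct summed to 24918 in water, 45204 at the low dose and 32337 at the high dose, and Aqp2, the brightest of them, stood at 12295, 31063 and 18731 of these. Aqp2 was at 1.34 at the low dose and 0.61 at the high dose, while the median of the list was 0.34 and 0.44. Of the 12 genes 5 lay below water at the low dose, namely Scnn1a, Scnn1b, Scnn1g, Kcnj1 and Hsd11b2, from -0.67 to -0.25, and 4 at the high dose. Genes of the inner medulla and papilla, the part of the kidney that projects into the renal pelvis, were at least 2-fold higher in 4 of 14 at the low dose and in 3 of 14 at the high dose. Among them were the aldose reductase Akr1b1 at 3.23 and 2.18 and the urea transporter Slc14a2 at 1.69 and 1.66. The median of the 11 measured genes of that list was 0.26 and 0.07. Of these 11, 3 lay below water at the low dose and 5 at the high dose, among them Ptgds at -0.28 and -0.15. Adipocyte genes summed to 1540, 9987 and 5129 in water, low-dose and high-dose kidney, with 7 of 13 at least 2-fold higher at each dose. Fibroblast and matrix genes summed to 3974, 12618 and 4507. Of these 14 genes, 10 were at least 2-fold higher at the low dose and 1 at the high dose. Smooth muscle genes summed to 1802, 2336 and 2327. Over all named genes with a fold, measured or as a bound, 3.50% were at least 2-fold higher at the low dose and 1.30% at the high dose. The totals of these lists, unlike those shares, include genes not above background. Of 9 mesothelial genes, 4 were above background on some array, while Lrrn4, Calb2, Muc16, Bnc1 and Rspo1 were above it on none. Msln stood at 24.2 in water, 275 at the low dose and 71.0 at the high dose, at least 11.4-fold and at least 2.94-fold higher than water. The other detected ones were Wt1 at -0.42 and -0.31, Gpm6a at -0.72 and -0.07 and Krt19, given above, and the median of these 3 was -0.42 at the low dose and -0.07 at the high dose.

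The 3 arrays shared a slide, and array position and group cannot be told apart. In 1 of 140 areas of the array the water array read weakly, with a local median log2 difference from the doses of -0.51. None of the 9 member probes was printed there, and the local medians at their spots lay between -0.18 and 0.11. After centring each area on its own median, 7 probes remained at least 2-fold higher at each dose. Leaving out the spots of the weak area removes no member probe and changes only the scaling, so it is no check on the members.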

How the data were processed

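Kidney RNA of 3 groups of spontaneously hypertensive rats was measured on Agilent rat arrays with Cy3, per the labels. Groups came from the sample labels. The deposited scanner files give spot intensity read with GenePix Pro 6.1.0.4 at a photomultiplier gain of 550, with a background of 39 to 40 units already subtracted by the authors' software, per the file headers. Agilent Feature Extraction is the tool in the submitters' processing notes, although the columns are GenePix columns. Per the file headers, the signal-to-noise ratio and flag are each a score, and saturated pixels are a percent. A table of log2 values per probe, deposited by the authors and scaled by a method not given in the sources used here, served as an alternative. In the high-dose file the header refers to a mouse design, but the annotation of its 45220 spots equals that of the other files.

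Control spots and non-uniform spots (pixel mean and median over 1.5-fold apart) were left out. So were spots flagged as not found that had a net intensity of at least 100. The remaining spots of a probe were averaged. Values were scaled to one 75th percentile (factors 1.15, 0.968 and 0.911 for water, low dose and high dose), floored at 1 and put on a log2 scale. The size rule was 2-fold. Genes were named through accessions or symbols in a RefSeq table of GRCr8 (18355 probes by accession, 2758 by current symbol, 422 by synonym, 1787 by the symbol in the files and 7045 unnamed). No coordinates came from the files. Calculations used Python 3.11.15 and numpy 2.4.6, with normexp from limma 3.58.1. They were tested on simulated data with known changes in probes bright enough to be measured on both arrays. The bounds were not tested in this way.

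The members and lists were chosen with earlier results of these data known. The motif letters, and the combination of AP-1 matches with a TATA box, were chosen with the promoter sequences in view. All members were named with every probe. From each list up to 4 genes past 2-fold and measured on both arrays were to be named, largest first. List genes given as bounds, as not above background or with differences under 2-fold were named after their values were seen. For list genes with several probes, the probe detected on the most arrays was used, and the brighter one on ties. The alternatives tried were other scalings, background corrections, signal-to-noise limits, floors, spot filters, local centring, the authors' table and averaging of a gene's probes. The values of 1 gene of the junction list are not reported here.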

Additional observations from a re-analysis of the deposited data

How the results depend on the processing

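No paired analysis was possible because each group has 1 array. Over 11 alternatives, 24 member differences gave 264 values. Of these, 203 moved by no more than the median technical SD, 61 moved by more and 0 were counted as reversed. That SD does not cover dim water spots. A reversal was counted only where the main difference was 2-fold or more. A bound cannot change sign while it stays a bound, so the 0 says little about direction. The count of member probes at least 2-fold higher was 7 at the low dose and 7 at the high dose under most alternatives. It was 5 at the high dose with normexp, and 6 genes at each dose when the probes of a gene were averaged. The count of probes lower by 2-fold or more at the high than at the low dose was 2, and 3 with quantile normalization. It was 0 with normexp and 1, counted as genes, when the probes of a gene were averaged. With a signal-to-noise limit of 2 in place of 3, 5 rather than 2 of the probes were measured against water and the counts were 7, 7 and 2. The authors' deposited table gave 7, 7 and 2 as well. Dim water spots limit the size of 6 of the 7 higher probes to a bound. Each value rests on 1 spot and 1 pool of RNA, so the spread between rats is unknown.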

Other observations

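The genes next to the members on the chromosomes were also read, 5 protein-coding genes on either side in the RefSeq annotation. Around Upk1a, Upk1b, Upk2, Sprr1a and Psca, 9, 8, 9, 4 and 8 neighbours had a probe. Of these, 6, 5, 6, 2 and 6 were above background on some array, and 0 were at least 2-fold higher at either dose. Near Upk3a the extracellular matrix gene Fbln1 was higher at the low dose, as a bound of 1.45 (log2). Around Fxyd3, Fxyd1 and Fxyd5 were higher at the low dose and Fxyd1 at the high dose, out of 9 neighbours with a probe. Around Upk3b, Upk3bl1 was the 1 of 8 past 2-fold at each dose. Near Upk3a, Upk3b and Fxyd3, 6, 8 and 7 neighbours were above background on some array. No neighbour was at least 2-fold lower at either dose. Over all named genes with a fold, 3.50% were at least 2-fold higher at the low dose and 1.30% at the high dose. The shares at least 2-fold lower were 1.06% and 0.278%. With so few neighbours above background, these counts say little about the loci. Upk1a and Fxyd3 lie on the same chromosome with 26 protein-coding genes between them.

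Of 22 listed genes for secreted products of mucosal epithelia, 14 were above background, of which 3 were past 2-fold in the higher and 1 in the lower direction at the low dose, and 0 in either at the high dose. The median of the 14 was 0.06 at the low dose and 0.10 at the high dose, and the difference between the doses was not tested. The lipocalin Lcn2 stood at 50.6 in water, 659 at the low dose and 71.0 at the high dose, log2 differences of 3.70 and 0.49. The protease inhibitor Slpi stood at 2.06 and 0.33 and the glutathione peroxidase Gpx2 at 1.47 and -0.06, while the trefoil peptide Tff3 stood at -1.02 and -0.15. Against the low dose, Lcn2 at the high dose stood at -3.21 and Slpi at -1.73.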
